A study of Arabidopsis thaliana with 12 samples.

Results

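CUTA (AT2G33740) is a nuclear gene of Arabidopsis thaliana for a copper-binding protein of the chloroplast. It was measured by 1 probe, number 3247, the only one of 3439 probes on the array whose annotation named CUTA, and it named no other gene. The gene was chosen from its lower signal in the mutant on these same arrays, so its level in toc160 against the wild type is described here without a test. The samples were 6 arrays hybridised with total RNA of the toc160 mutant and 6 with total RNA of the wild type (WT), all of ecotype Wassilevskija. Toc160 is an earlier name of Toc159, a receptor at the outer chloroplast envelope that binds precursor proteins made in the cytosol, and the labels describe the mutant as poor in importing proteins across that envelope. Tissue, age, growth conditions and the number of plants are not in the labels, and neither is the mutant allele. No probe naming a single gene named Toc159, so the transcript of the mutated gene was not analysed here. In these bulk samples a lower signal can come from fewer cells of a type or from less RNA per cell, and these cannot be told apart.

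CutA proteins are small, form trimers and occur in bacteria, plants and animals. Their name comes from a copper tolerance locus of Escherichia coli. The plant protein is made in the cytosol with a transit peptide and binds copper ions. Inside the chloroplast, copper serves plastocyanin, the electron carrier between the cytochrome b6f complex and photosystem I, and a copper/zinc superoxide dismutase. Copper reaches them through the ATP-driven pumps PAA1 and PAA2 and, for the dismutase, through the chaperone CCS.

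The deposited values are intensities on a linear scale with a ceiling of 100, and the sources used here do not say how they were scaled. Array sums lay between 3720 and 3815 on toc160 arrays and between 3612 and 3681 on WT arrays, and array medians between 0.627 and 0.646 on toc160 arrays and between 0.477 and 0.551 on WT arrays. Within each group the arrays formed 3 near-duplicate pairs, made of replicates 1 and 2, of 3 and 4, and of 5 and 6. Means are therefore given over 3 pair averages, and p-values rest on the spread between these arrays, which may be technical.

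On the toc160 arrays the CUTA probe had deposited intensities of 3.25, 2.91, 3.40, 2.88, 1.88 and 1.54 in replicates 1 to 6. On the WT arrays it had 6.57, 6.09, 6.78, 6.39, 4.94 and 4.84 in replicates 1 to 6. Every toc160 array was below every WT array, and in both groups the lowest values were those of replicates 5 and 6. The highest toc160 value, 3.40, lay below the lowest WT value, 4.84. The mean was 2.64 ± 0.806 on toc160 arrays and 5.94 ± 0.913 on WT arrays (SD, n = 3 pair averages each), a ratio of 0.445. None of the 12 values was 0 or close to the ceiling. Of all 691 loci with a single-gene probe, 18 (2.6%) were lower on every toc160 array than on every WT array as deposited. The gene was chosen on this contrast, so nothing is read from its place among them.

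**Figure D1:**
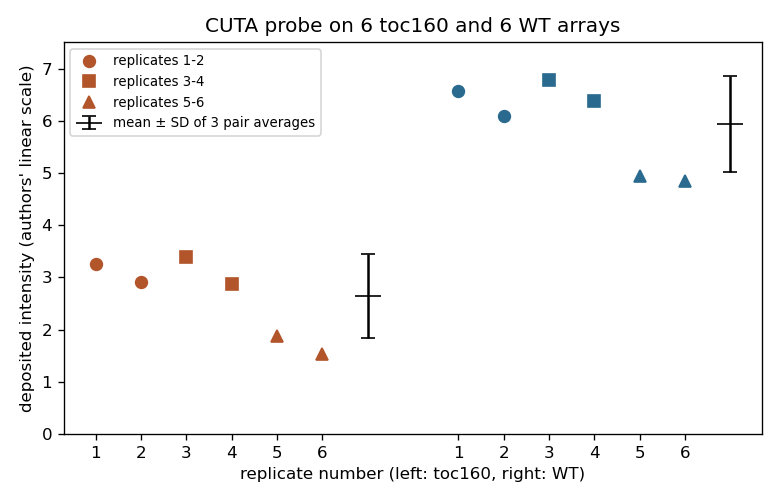
Deposited intensity of the CUTA probe (vertical axis, the authors' linear scale) on each toc160 array (left) and WT array (right), by replicate number. Marker shapes show the near-duplicate pairs of replicates, and the bar is the mean ± SD of 3 pair averages. The toc160 values lie between 1.54 and 3.40 and the WT values between 4.84 and 6.78, and replicates 5 and 6 are lowest in both groups.

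The place of the probe in the order of brightness moved with the intensity. It was between the 111th and the 417th brightest of the 3439 probes on toc160 arrays and between the 54th and the 85th on WT arrays. Relative to the array median, its signal was 2.39 to 5.31 times as high on toc160 arrays and 8.79 to 13.8 times as high on WT arrays. Averaged over all arrays after normalization it was the 103rd brightest probe. This order describes the signal of the probe and not the amount of transcript relative to other genes.

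After quantile normalization, which gives every array the same distribution, the log2 intensity of CUTA was 1.39 ± 0.59 on toc160 arrays and 2.44 ± 0.22 on WT arrays (SD, n = 3 pair averages each). The log2 difference, toc160 minus WT, was -1.05 (limma SE 0.23), or 2.07-fold lower in toc160. It was the 7th lowest of 691 loci and the 10th largest in size. Among all 3439 probes, named or not, it was the 60th lowest. Among the 344 brightest probes it was the 38th lowest, in a class with a median log2 difference of 0.21. Without replicates 5 and 6 in both groups the difference was -0.85 and the rank 18th, and without toc160 replicate 6 alone they were -0.88 and 14th.

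**Figure D2:**
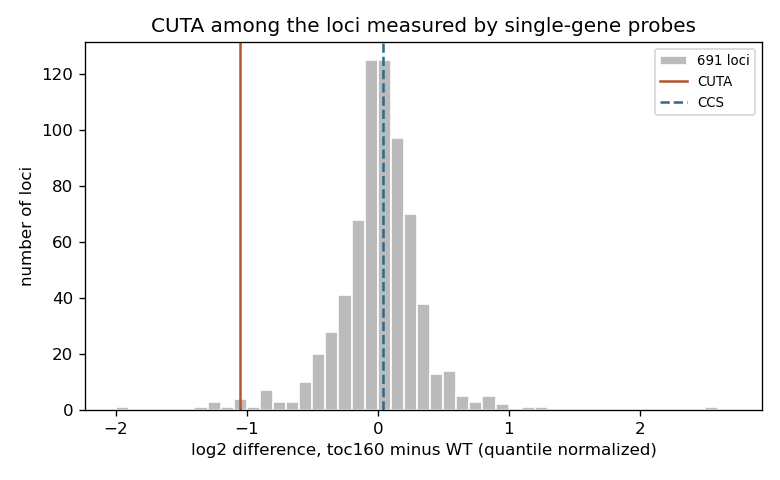
Log2 difference, toc160 minus WT, after quantile normalization (horizontal axis) for the 691 loci with a single-gene probe, counted in bins of 0.1 (vertical axis). The solid line marks CUTA at -1.05, the 7th lowest, and the dashed line marks the copper chaperone gene CCS at 0.04.

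In the order of the log2 differences, CUTA stood between the abscisic acid-linked RING protein gene XERICO (-1.16, SE 0.17) and AT4G05030 (-1.04, SE 0.28). Next below XERICO were AT4G32060 (-1.24, SE 0.13) and AT1G62250 (-1.24, SE 0.07), and next above AT4G05030 were AT4G31530 (-1.01, SE 0.09) and AT5G06990 (-1.01, SE 0.12). The distances between CUTA and these 6 neighbours were smaller than its own SE of 0.23, which holds the spread between the pairs of replicates. The order among these loci was not tested, so nothing is read from it. The SE of CUTA was larger than that of 5 of the 6, with only AT4G05030 above it. AT4G05030 was a dim probe, at 0.111 ± 0.0260 in toc160 and 0.155 ± 0.0533 in WT (SD, n = 3 pair averages).

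The difference was not the same size in the 3 pairs of replicates. By replicate number, the normalized log2 difference was -0.70, -0.73, -0.85, -1.02, -1.34 and -1.67 for replicates 1 to 6. All 6 values were negative, and those of replicates 5 and 6 were furthest from 0. The pair averages were -0.71 for replicates 1 and 2, -0.93 for replicates 3 and 4 and -1.50 for replicates 5 and 6. Among the 691 loci these were the 26th, the 17th and the 2nd lowest of their pair. As deposited, the pair averages were -1.04, -1.07 and -1.52, the 10th, the 10th and the lowest of their pair. CUTA thus had the lowest log2 difference of all 691 loci in replicates 5 and 6 on the deposited scale and with median centring or cyclic loess, and the 2nd lowest after quantile normalization.

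**Figure D3:**
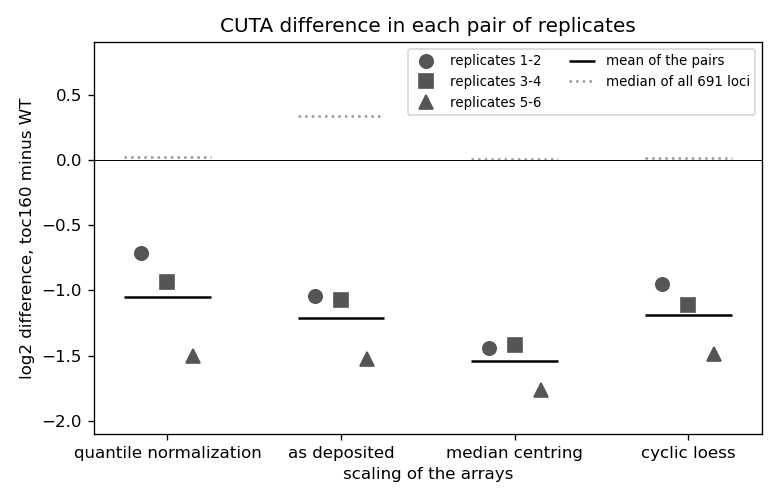
Log2 difference of CUTA, toc160 minus WT (vertical axis), in each pair of replicates under 4 scalings of the arrays (horizontal axis). Solid lines are the mean of the pairs and dotted lines the median of all 691 loci. Every point is negative, replicates 5 and 6 are lowest under each scaling, and the mean runs from -1.54 with median centring to -1.05 after quantile normalization.

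The size of the difference moved with the scaling, and its sign did not under the 4 scalings tried. It was -1.54 with median centring (SE 0.21), -1.21 as deposited (SE 0.20) and -1.18 with cyclic loess (SE 0.20). As deposited the median of all loci was higher in toc160 by 0.33 on the log2 scale, and the difference of CUTA minus that median was -1.55. After quantile normalization the median of all loci was 0.03.

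Levels of CUTA also differed between the pairs of replicates. In toc160 the pair averages of deposited intensity were 3.08 for replicates 1 and 2, 3.14 for replicates 3 and 4 and 1.71 for replicates 5 and 6. In WT they were 6.33, 6.59 and 4.89 in the same order. Replicates 5 and 6 had 0.556 times the intensity of replicates 1 and 2 in toc160, and 0.773 times in WT. The largest gap inside a pair was 0.519 in toc160 and 0.481 in WT, smaller than the distance of replicates 5 and 6 from the other pairs. On the normalized scale, averaged over the genotypes, replicates 5 and 6 were lower than replicates 1 and 2 by a log2 difference of -0.63 (SE 0.11), and replicates 3 and 4 differed from 1 and 2 by 0.09 (SE 0.11). The limma F test of the pair term gave an adjusted p of 0.00214 over 691 loci, against the spread between near-duplicate arrays. The gene was chosen on the genotype contrast, but the pairs were chosen with earlier results of these data known. Near duplicates inside a pair make a pass likely, so nothing particular to CUTA is read from it. Of the 691 loci, 506 (73.2%) passed that test, so a difference between the pairs was common on these arrays. What separated the pairs is not in the labels.

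Whether the toc160 minus WT difference itself varied among the pairs was tested next. After normalization, replicates 5 and 6 minus 1 and 2 came to -1.02 in toc160, the 27th lowest of 691 loci, and to -0.23 in WT, the 232nd lowest. The toc160 minus WT difference was thus lower in replicates 5 and 6 than in 1 and 2 by a log2 value of -0.79 (SE 0.23), and lower in 3 and 4 than in 1 and 2 by -0.22 (SE 0.23). The limma F test of this genotype by pair term missed the threshold of 0.05, with an adjusted p of 0.108 (unadjusted p 0.026). It was passed by 73 loci (10.6%), and 201 (29.1%) had an unadjusted p under 0.05. With the dimmest 25% of loci left out, the adjusted p for the same difference was 0.0445. Other scalings gave smaller sizes: -0.48 as deposited (adjusted p 0.15), -0.54 with cyclic loess (0.128) and -0.33 with median centring (0.259).

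**Figure D4:**
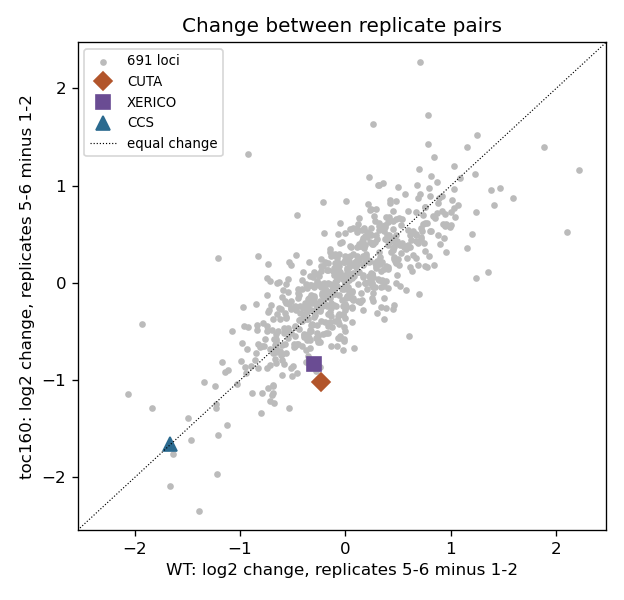
Log2 change of replicates 5 and 6 minus replicates 1 and 2 in toc160 (vertical axis) and in WT (horizontal axis) after quantile normalization, for 691 loci. The dotted line marks equal change. CUTA lies below it at -1.02 in toc160 and -0.23 in WT, XERICO close by at -0.83 and -0.30, and CCS on it at -1.66 and -1.66.

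Genes of metal handling could hardly be compared with CUTA on this array. Of 32 listed genes of copper transport, copper chaperones and copper proteins, 1 had a single-gene probe, CCS (AT1G12520), the chaperone that loads copper into copper/zinc superoxide dismutases. None of 4 iron and manganese superoxide dismutases, 27 genes of iron handling or 14 genes of zinc handling had one, so the pumps PAA1 and PAA2 and plastocyanin were not analysed here. CCS had deposited intensities of 0.640, 0.677, 0.352, 0.406, 0.257 and 0.229 on toc160 arrays 1 to 6. On WT arrays 1 to 6 it had 0.439, 0.475, 0.299, 0.330, 0.197 and 0.160. In each genotype replicates 1 and 2 were highest and 5 and 6 lowest, so the ranges of the genotypes overlapped. At the same replicate number the deposited value was higher in toc160 in 6 of 6 cases, on arrays whose medians were also higher in toc160.

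CCS did not pass the test between the genotypes. Its normalized log2 difference was 0.04 (SE 0.42, limma adjusted p 1), and as deposited it was 0.41 (SE 0.36, adjusted p 0.365), close to the 0.33 of the median locus. The SE of 0.42 holds the spread between the pairs of replicates. By replicate number the normalized differences lay between -0.18 and 0.25, and with the replicate number as a block the SE was 0.06 (adjusted p 0.687), or 0.08 on pair averages blocked by pair (adjusted p 0.812). Of all 691 loci, 72 (10.4%) passed the same test, 34 (4.92%) higher and 38 (5.5%) lower in toc160. That split moved with the scaling: as deposited 292 passed, 266 higher and 26 lower, and with median centring 106 passed, 25 higher and 81 lower. The count was 196 with the replicate number as a block. All these fits take near-duplicate arrays as separate samples. On pair averages the count was 12 when blocked by pair and 3 when not. Between the pairs of replicates, CCS was lower in replicates 5 and 6 than in 1 and 2, by a log2 difference of -1.66 in toc160 and -1.66 in WT (limma F adjusted p of the pair term 8.73e-05). The genotype by pair term gave an adjusted p of 0.575.

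The loci whose values followed CUTA most closely over the 12 normalized arrays were AT4G30740 (Pearson r 0.946), AT1G80450 (0.943), XERICO (0.940), AT3G04650 (0.936) and AT5G52530 (0.935). Over all 655 other loci that varied the median r was -0.08, and 9 had an r above 0.9. These correlations contain the genotype difference by which CUTA was chosen, and the 12 arrays form 6 near-duplicate pairs. XERICO had pair differences of -0.98, -0.98 and -1.52 for replicates 1 and 2, 3 and 4, and 5 and 6, also furthest from 0 in the last. Its levels in replicates 3 and 4 minus 1 and 2 differed by -0.26 in toc160 and -0.26 in WT. For CUTA these values were -0.02 and 0.20. AT5G52530 had a mean of 0.731 ± 0.113 in toc160 and 1.21 ± 0.111 in WT (SD, n = 3 pair averages), with pair differences of -0.90, -0.98 and -1.04. AT4G30740 and AT3G04650 were dimmer, with log2 differences of -0.75 (SE 0.16) and -0.57 (SE 0.15). AT1G80450 ranked high although its normalized log2 difference was -0.21 (SE 0.07), since r ignores the size of a change. Its deposited mean was higher in toc160, at 0.676 against 0.629 in WT.

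With the mean of each genotype removed, the closest loci were AT3G51930 (r 0.932), AT5G10920 (0.909), AT1G80450 (0.906), AT3G26730 (0.897) and AT2G24810 (0.895), of 655 with a median r of 0.0046. Only AT1G80450 was among the closest 5 by both measures. None of these 5 passed the test between the genotypes. Their normalized log2 differences were -0.19 for AT3G51930, 0.08 for AT5G10920, -0.21 for AT1G80450, 0.25 for AT3G26730 and -0.45 for AT2G24810. As deposited, the means of all 5 were higher in toc160. For AT3G51930, AT1G80450 and AT2G24810 they were 0.693, 0.676 and 0.282 on toc160 arrays and 0.621, 0.629 and 0.246 on WT arrays. All 5 were lower in replicates 5 and 6 than in 1 and 2 in both genotypes, from -2.34 for AT2G24810 to -0.30 for AT1G80450 in toc160 and from -1.39 to -0.15 for the same loci in WT. These loci were picked for deviations like those of CUTA, which fixes this pattern in part, and it is given as a description.

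In the reference annotation the span of CUTA overlaps those of both adjacent genes, AT2G33735 and the purine permease gene PUP2 (AT2G33750). Neither was named by any probe, alone or with other genes, but 1877 of the 3439 probes named no gene. Whether the CUTA probe also detects their transcripts was not tested, since the probe sequence was not used here.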

How the data were processed

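Total RNA of toc160 and WT plants was measured on 12 single-channel arrays, replicates 1 to 6 in each group per the labels. Each probe has 1 deposited intensity for every array, and the values themselves show a linear scale. The scanning, background correction and scaling done by the authors are not given in the sources used here. By the platform annotation 692 probes named 1 gene, 870 named several and 1877 named none. Of the 692, 690 took the symbol of the TAIR10.1 RefSeq annotation by gene ID, and probes of 1 locus were averaged, leaving 691 loci. No coordinates or sequences are printed, because no build or sequence was given for the arrays.

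Intensities below the 1st percentile of positive values (0.0364) were raised to it, log2 transformed and quantile normalized over 3439 probes. Array medians differed by 0.44 on the log2 scale before that step. Fits used limma 3.58.1 in R 4.3.3 over all loci, with two-sided p-values adjusted by Benjamini-Hochberg and called under 0.05. They were tested on simulated data with known changes, in which the noise of each array was independent. That check does not cover error rates with near-duplicate arrays. The genotype fit set 6 arrays against 6 without a block, so its SE holds the spread between the pairs of replicates. The pair and genotype by pair terms came from 1 fit with genotype, pair and their product, whose residual is the spread between near-duplicate arrays. Replicate numbers pair the samples, since arrays sharing a number deviated together from their genotype means (r 0.518 to 0.722 in 6 of 6 pairs). Within a group, Spearman correlations were 0.983 to 0.990 inside the pairs of replicates and 0.871 to 0.945 between them.

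CUTA, the metal gene lists and the pairs of replicates were chosen with earlier results of these data known. Named genes are CUTA, its 3 neighbours on each side in the order of log2 differences, the 5 loci most correlated with it over the arrays and over deviations from group means, the measured members of the metal lists, adjacent genes, and probes within 3 numbers of its own. Alternatives were other scalings, floors, filters, blocks, pair averages, a fit to all probes and leaving out arrays or pairs.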

Additional observations from a re-analysis of the deposited data

Results flagged for a closer look

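Of 32 groups of 6 arrays checked over 16 named loci, 1 held a value apart from the rest; about 5% would by chance. In the wild type, AT4G31530 on replicate 3 had a normalized log2 intensity of 5.62 and the nearest WT array 5.38, a gap of 1 times the group's range. Quantile normalization gives equal values wherever the rank of a probe is equal. No CUTA value stood apart in either genotype by this measure, which can miss an array whose near duplicate lies close to it.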

How the results depend on the processing

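The log2 difference of CUTA stayed negative under all 25 alternatives. The gene was chosen on this contrast, so nothing is read from the unchanged sign. The difference moved by more than 1 SD of its pair differences under 1 alternative, median centring (-1.54). Leaving out 1 array at a time gave -1.15 to -0.88. The blocked fit and both fits on pair averages left it at -1.05, as they must with equal numbers of arrays in each group. The other floors, the filter on dim loci and the fit to all probes also gave -1.05, so these settings are no separate support. The rank of CUTA was 15th of 691 with a floor at the smallest positive value. The number of loci called between the genotypes was 292 as deposited, 528 of 3439 with all probes, 196 with the replicate block by number, 3 with pair averages without a block and 12 with pair averages blocked by pair, against 72, and 57 to 71 when 1 array was left out. The difference between pairs of replicates passed under all 19 alternatives (adjusted p 7.48e-05 to 0.0114), with values of -0.74 to -0.53. The genotype by pair term passed under 1 of 20, the fit without the dimmest 25% of loci (-0.79, adjusted p 0.0445). That fit held 518 loci, and why its adjusted p was lower was not tested. Elsewhere its adjusted p lay between 0.0647, with the replicate block, and 0.261, and leaving out 1 array, where the lone array of a pair is assumed to vary like the others, gave -1.02 to -0.59. CCS had no settled sign: leaving out 1 array gave -0.19 to 0.23, and it was -0.0040 without replicates 1 and 2 and -0.0098 without replicates 5 and 6, with no call under any of 24 alternatives (adjusted p 0.365 to 1). The number of arrays limits precision, and signal over background is unknown.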

Other observations

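Probes with numbers close to that of CUTA gave these values. Probe 3249, annotated with several genes, was lower in toc160, at a mean of 0.856 on toc160 arrays and 1.06 on WT arrays (log2 difference -0.55, limma adjusted p 0.00862 over all probes). Its r with CUTA over the 12 arrays was 0.835, a value that contains the genotype difference by which CUTA was chosen. Probe 3245 for TPP2, a tripeptidyl peptidase, had a log2 difference of 0.24 (adjusted p 0.321), probe 3250 for AT2G15440 one of -0.16 (adjusted p 0.828) and the unnamed probe 3244 one of -0.08 (adjusted p 0.949). None of these last 3 passed, and 528 of all 3439 probes did, in a fit that takes near-duplicate arrays as separate samples. As deposited, the means of all 3 were higher in toc160. For probes 3244 and 3250 they were 0.516 and 0.676 on toc160 arrays and 0.419 and 0.577 on WT arrays.

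The unnamed probe 3241, chosen after its values were seen, lies 6 numbers from CUTA. Its mean was 1.88 on toc160 arrays, with a range of 1.45 to 2.24, and 3.91 on WT arrays, with a range of 3.24 to 4.55. Its log2 difference was -0.99 (SE 0.13) and its r with CUTA 0.951, given without a test because the probe was picked for its likeness to CUTA. Of 3296 other probes that varied, 7 had an r with CUTA of at least 0.95, and all 7 were probes with several genes or none. Of all 3439 probes, 870 named several genes and 1877 named none, so nothing is read from that count. What probe 3241 detects is not known here, and whether its position bears on this likeness was not tested.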
